A study of Mus musculus with 2 samples.

Results

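The Egr, Nr4a and Klf factors described here are 10 transcription factor genes, Egr1, Egr2, Egr3, Nr4a1, Nr4a2, Nr4a3, Klf2, Klf4, Klf6 and Klf10, out of 22556 named genes on a mouse expression array. They were chosen by name, and all 11 array probes that carry one of these names are reported. Long-term hematopoietic stem cells (LT-HSC) were sorted from the bone marrow of 2-year-old C57BL/6J mice as CD150+CD48-Flt3-CD34- LSK cells (lineage-negative, Sca-1+, c-Kit+), and their RNA was hybridized in a single color to Agilent arrays, 1 array per genotype. The methods add CD41- to the sort gate, while the design description names neither CD150 nor CD48. Mice labelled p38KO, written p38αΔ/Δ here, carried the CAG-CreERT2 transgene and floxed alleles of p38α (p38α fl/fl), and received tamoxifen (TAM) at an age of about 1 year. The controls, labelled wild-type and written p38α+/+ here, were of the same age and, per the methods, were p38α fl/fl mice without Cre that also received TAM. CAG is a promoter active in most cell types, so the deletion was not restricted to LT-HSCs. How many mice stand behind each array is not given in the sources used here.

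Egr factors are zinc finger proteins and Nr4a factors are orphan nuclear receptors. Both belong to the immediate early genes, whose transcription is switched on within minutes of a signal by proteins that are already present, among them SRF and its ELK partners at CArG boxes, CREB at cAMP response elements (CRE) and MEF2 factors. Several Klf zinc finger factors respond in the same way, and Klf2 is known for keeping lymphocytes at rest. In HSCs, Egr1 and the Nr4a genes are known for restraining proliferation, and p38α can act on such promoters through the kinases MSK1 and MSK2.

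Probe sequences are shown for the genes on which the limits of the measurement turn. The Nr4a3 probe joins sequences that lie apart in the genome, so it reads spliced RNA, and its target spans chr4:48080690-48083876 (mm9, plus strand, 3187 bases). The Nr4a2 probe shown is the brighter member of a pair and lies at chr2:56960699-56960758 (mm9, minus strand), upstream in the mRNA of the dimmer probe at chr2:56959637-56959696. The Egr3 probe lies at chr14:70479222-70479281 (mm9, plus strand), and its signal differed by less than the error of a spot. Each is the strand of the mRNA, 60 bases from 5′ to 3′.
Nr4a3: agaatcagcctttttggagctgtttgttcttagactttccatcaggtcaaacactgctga
Nr4a2: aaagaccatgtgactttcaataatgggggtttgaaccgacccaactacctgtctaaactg
Egr3: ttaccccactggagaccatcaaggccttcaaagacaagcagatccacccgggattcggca

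Promoter windows in RefSeq (GRCm38.p6), from 250 bases before to 50 bases after an annotated start, were matched for 7 of the 10 genes, all but Egr1, Egr3 and Klf10. They were searched on both strands for TGACG, the core that each arm of a CRE palindrome carries, for the full CRE palindrome, for the Egr site (GCGGGGGCG or GCGTGGGCG), and for the CArG box and the MEF2 site, the last 2 given by name because their letters vary. A core can lie within a full CRE, but no window of a member held a full CRE, which is present in 1.79% of 32851 windows. The 250 bases before the start are shown for the Nr4a genes, which share a pattern, and for Klf2, the gene with the largest difference between the arrays. Capitals mark CRE cores where they run for 5 bases, Egr sites where they run for 9 and MEF2 sites where they run for 10.
Nr4a1, chr15:101266596-101266845, plus strand: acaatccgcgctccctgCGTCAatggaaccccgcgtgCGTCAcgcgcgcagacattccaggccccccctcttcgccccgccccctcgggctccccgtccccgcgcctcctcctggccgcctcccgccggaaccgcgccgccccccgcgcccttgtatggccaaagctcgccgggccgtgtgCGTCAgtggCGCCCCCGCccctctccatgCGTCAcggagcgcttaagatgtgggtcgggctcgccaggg
Nr4a2, chr2:57124004-57124253, minus strand: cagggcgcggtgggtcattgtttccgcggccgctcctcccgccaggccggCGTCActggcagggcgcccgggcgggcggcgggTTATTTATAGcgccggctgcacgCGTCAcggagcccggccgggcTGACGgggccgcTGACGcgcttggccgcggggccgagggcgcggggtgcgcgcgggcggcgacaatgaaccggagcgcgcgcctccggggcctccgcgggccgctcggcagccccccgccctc
Nr4a3, chr4:48045055-48045304, plus strand: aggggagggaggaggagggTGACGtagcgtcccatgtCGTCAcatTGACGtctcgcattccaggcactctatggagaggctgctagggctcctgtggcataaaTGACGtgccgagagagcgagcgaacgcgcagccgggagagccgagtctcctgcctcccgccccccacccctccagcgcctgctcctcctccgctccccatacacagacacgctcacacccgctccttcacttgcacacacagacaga
Klf2, chr8:72318812-72319061, plus strand: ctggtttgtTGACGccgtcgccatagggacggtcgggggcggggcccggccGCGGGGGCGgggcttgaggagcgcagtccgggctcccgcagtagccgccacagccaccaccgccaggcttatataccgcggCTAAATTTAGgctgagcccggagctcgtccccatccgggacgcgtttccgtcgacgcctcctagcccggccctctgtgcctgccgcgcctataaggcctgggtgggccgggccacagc

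Each of the 3 Nr4a windows held 4 CRE cores. At least 4 are found in 0.231% of all windows and at least 1 in 20.8%. Egr2, which has 5 annotated windows, held a CArG box in 4 of them. Some of these windows also held 2 CRE cores at the same distances from the box, so they may show 1 box from different starts. A CArG box is present in 1.63% of windows. That of Egr2 is shown in capitals with 10 bases on either side, at chr10:67537787-67537816 (plus strand).
Egr2: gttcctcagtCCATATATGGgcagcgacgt
Klf2 and Nr4a2 each held a MEF2 site (1.86% of windows), and Nr4a1, Klf2 and Klf4 each held an Egr site (3.47%). Klf6 held none of these motifs. A match describes the letters only, and binding was not measured.

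**Figure D1:**
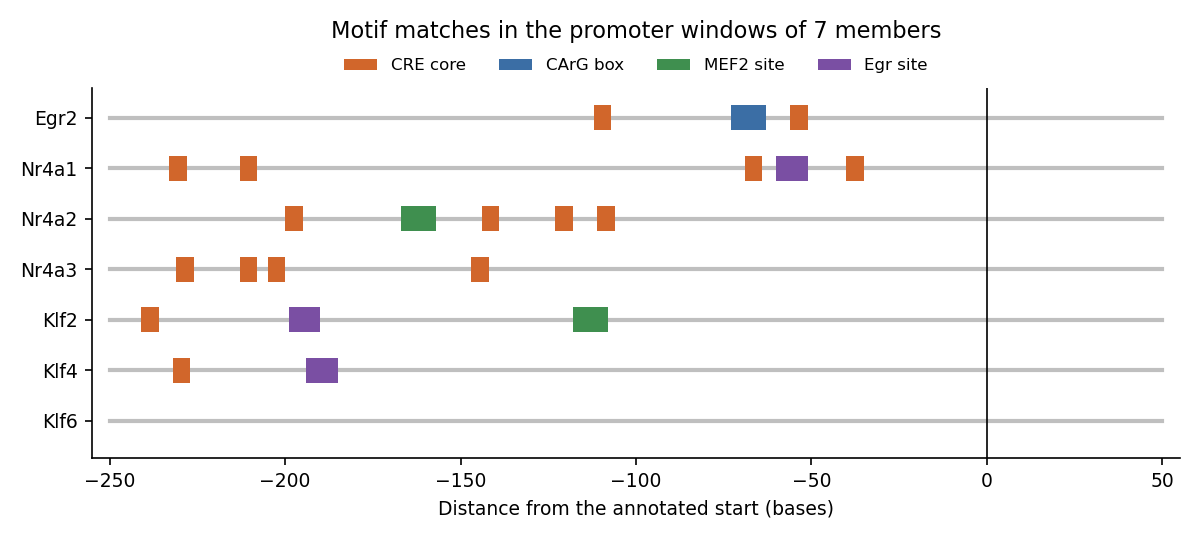
Positions of motif matches in the promoter windows of 7 members, as distance in bases from the annotated start (vertical line). Colored blocks are matches on either strand, and the window shown for Egr2 is 1 of its 5. The 3 Nr4a genes carry 4 CRE cores each and Klf6 carries no match.

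Values are given as background-subtracted intensities and as log2 levels relative to the 75th percentile of the same array, and a difference is the level on the array labelled p38αΔ/Δ minus the level on the p38α+/+ array. Both arrays lay on 1 slide. A probe is called detected where the scanner software marked its signal as well above background. Of 55681 distinct probes, 67.9% were detected on the p38α+/+ array and 69.0% on the other, and 0 were saturated. With 1 array per genotype no difference has a replicate check, no p-value is given, and the number of arrays limits the precision. The errors given are the scanner's own error of a difference and the SD of a difference between repeated spots of 1 probe, with a median of 0.14 (log2) over 276 repeated probes. Neither covers the spread between mice. In sorted bulk RNA, fewer cells of a type and less RNA per cell cannot be told apart. Mapk14, the gene for p38α, had log2 levels of 2.34 (p38α+/+) and 2.31 at its brighter probe and of 2.08 and 2.03 at the other, differences of −0.04 and −0.05. It was not lower on the array labelled p38αΔ/Δ by more than the spot error, so every direction below rests on the label. The study checked the deletion by genomic PCR of peripheral blood cells, not of LT-HSCs, from mice of this age, in measurements not analysed here. Whether either probe lies in the deleted part is not given in the sources used here. All 12 HSC marker genes were detected on both arrays, and so were the mRNAs of Cd34, Flt3, Cd48 and Itga2b (CD41) and of the lineage proteins Itgam (Mac-1), Cd4 and Cd8a, whose proteins were gated out by antibody per the methods.

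Among the Egr genes, Egr1 carried the bright signal. Its probe at chr18:35024395-35024454 (mm9) gave an intensity of 27859 for p38α+/+ and of 16131 on the array labelled p38αΔ/Δ, log2 levels of 7.60 and 7.13. The difference was −0.47 ± 0.20 (scanner error), a level 1.39-fold lower, and 18.5% of the 15645 genes measured on both arrays had a larger fall. Egr1 was thus lower by more than the spot error, and lay below the lower quartile of all genes (quartiles −0.38 and 0.33).

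Egr2 and Egr3 were measured near the limit of the arrays. For Egr2 (chr10:67004798-67004857), a factor best known from hindbrain and myelin development and from T cells, the intensity was 13.91 and then 16.59, log2 levels of −3.37 and −2.79. This difference of 0.57 ± 0.27 was the opposite of that of Egr1. Egr3, which acts in muscle spindles and lymphocytes, had intensities of 20.52 and 14.22, log2 levels of −2.81 and −3.02. The difference of −0.21 did not exceed the scanner error of 0.26 or the spot SD of 0.32 at this brightness. The lowest detected intensities were 5.71 (p38α+/+) and 4.19.

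Of the Nr4a genes, Nr4a1 and Nr4a2 were measured and both were lower on the array labelled p38αΔ/Δ. Nr4a1 (Nur77; chr15:101105071-101105130), a receptor induced by antigen and growth factor signals, had intensities of 553.8 and 337.7, log2 levels of 1.95 and 1.55. Its difference of −0.40 ± 0.20 was a 1.32-fold lower level, and 22.3% of genes had a larger fall. Nr4a2 (Nurr1), needed for dopaminergic neurons, had intensities of 475.6 and 351.1 at the probe printed above, log2 levels of 1.73 and 1.61, and of 299.4 and 197.0 at the dimmer probe, log2 levels of 1.06 and 0.78. The pair gave the same sign and different sizes, −0.12 and −0.29, of which the first lay within the scanner error of 0.20. Spots around the brighter probe had a median difference of −0.17, and against them its difference was 0.05.

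Nr4a3 (Nor1) was not detected, as its signal was not well above background, and it has no fold. Its probe is spotted 10 times per array. On the array labelled p38αΔ/Δ all 10 spots were kept, with intensities of 0.902 at the lowest, 1.05 at the median and 1.92 at the highest. On the p38α+/+ array 8 spots were kept, with a lowest of 1.28, a median of 1.47 and a highest of 2.17. The other two, marked by the scanner as outliers, read 3.76 and 61.4, and the latter was the single spot of all those on both arrays marked as well above background. The kept spots of both arrays overlapped and lay below the lowest detected intensity.

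**Figure D2:**
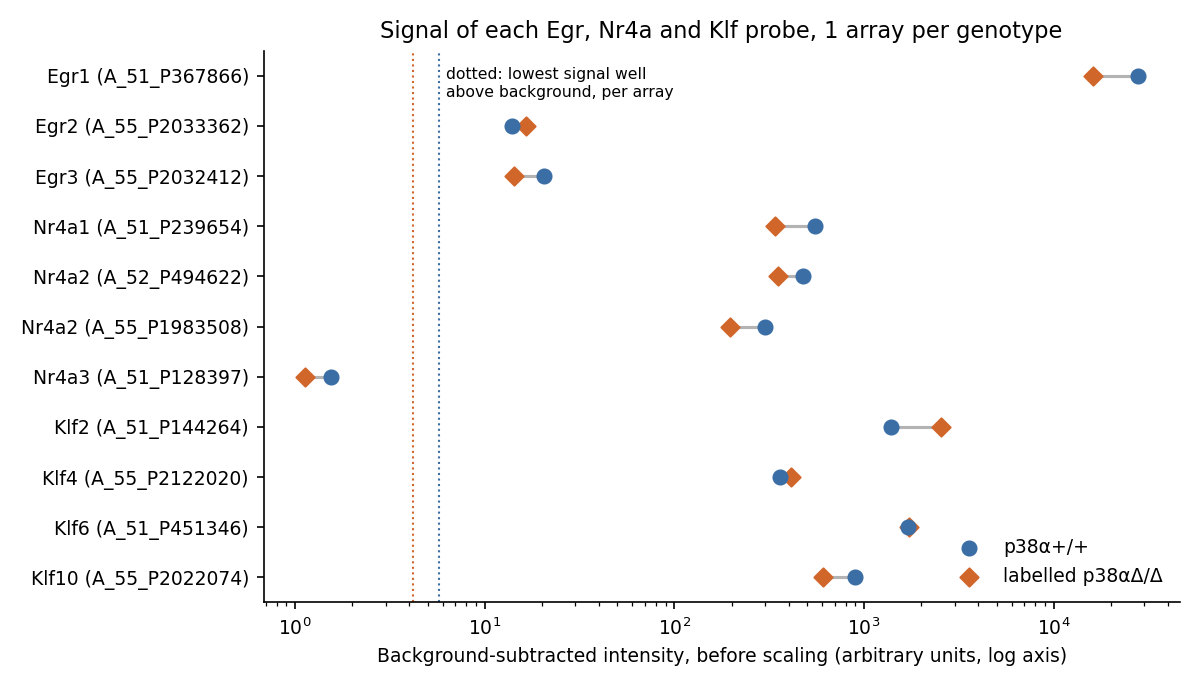
Background-subtracted intensity of each member probe (log axis, before scaling between the arrays) on the p38α+/+ array (circles) and the array labelled p38αΔ/Δ (diamonds), with each array's lowest detected intensity as dotted lines. Each line is read on its own, since probes differ in how brightly they bind. Nr4a3 lies below both dotted lines, and Klf2 shows the largest rise.

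Of the Klf genes, 3 were higher and 1 was lower on the array labelled p38αΔ/Δ. Klf2 (chr8:74845137-74845196) went from an intensity of 1381 to 2548, log2 levels of 3.27 and 4.47. The difference of 1.20 ± 0.20, a 2.30-fold higher level, was the only member difference past 2-fold, and 1.87% of genes had a larger rise. Repeated spots of similar brightness had an SD of 0.08 for a difference. The Klf2 spot lies near the edge of the array, where 182 neighbouring spots had a median difference of −0.30, so that against its neighbours Klf2 was higher by 1.51. Klf2 is read by 1 probe only.

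Klf4 (chr4:55540167-55540226), known as a reprogramming factor and for monocyte differentiation, had intensities of 360.0 and 412.3, log2 levels of 1.33 and 1.84, a difference of 0.51 ± 0.20. Klf6 (chr13:5869371-5869430), a widely expressed factor of blood vessel and blood development, had nearly equal raw intensities of 1710 and 1722. Its log2 levels were 3.58 and 3.90, and the difference of 0.33 ± 0.20 comes from the scaling to each array's 75th percentile (7.16 and 6.85 on the log2 scale). Klf10 (chr15:38224255-38224314), induced early by TGF-β, went the other way, with intensities of 891.3 and 609.2, log2 levels of 2.64 and 2.40 and a difference of −0.23 ± 0.20.

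Over the 9 genes that were measured, 4 were higher and 5 lower, with a median difference of −0.12 (0.11 with normexp background correction) against −0.03 over all 17193 genes detected on at least 1 array. Of these genes, 4.11% were 2-fold or more higher and 6.71% lower by as much. All 9 were detected on both arrays, and 1 was 2-fold or more higher and 0 lower, beside 3.18% and 5.02% of the 15645 genes detected on both, of which 46.8% were higher and 53.2% lower. Differences exceeded the SD between repeated spots for 8 of the 9 genes, all but Egr3, and exceeded the scanner error at the brightest probe for 7, all but Egr3 and Nr4a2. For Egr1 that SD came from only 2 repeated probes of similar brightness. The share of all genes past the same errors was not counted. Their quartiles (−0.38 and 0.33) lay beyond the median spot SD of 0.14, so these counts do not set the members apart. Neither direction was shared across the 3 families, since the Egr and Klf families each held genes of both signs.

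**Figure D3:**
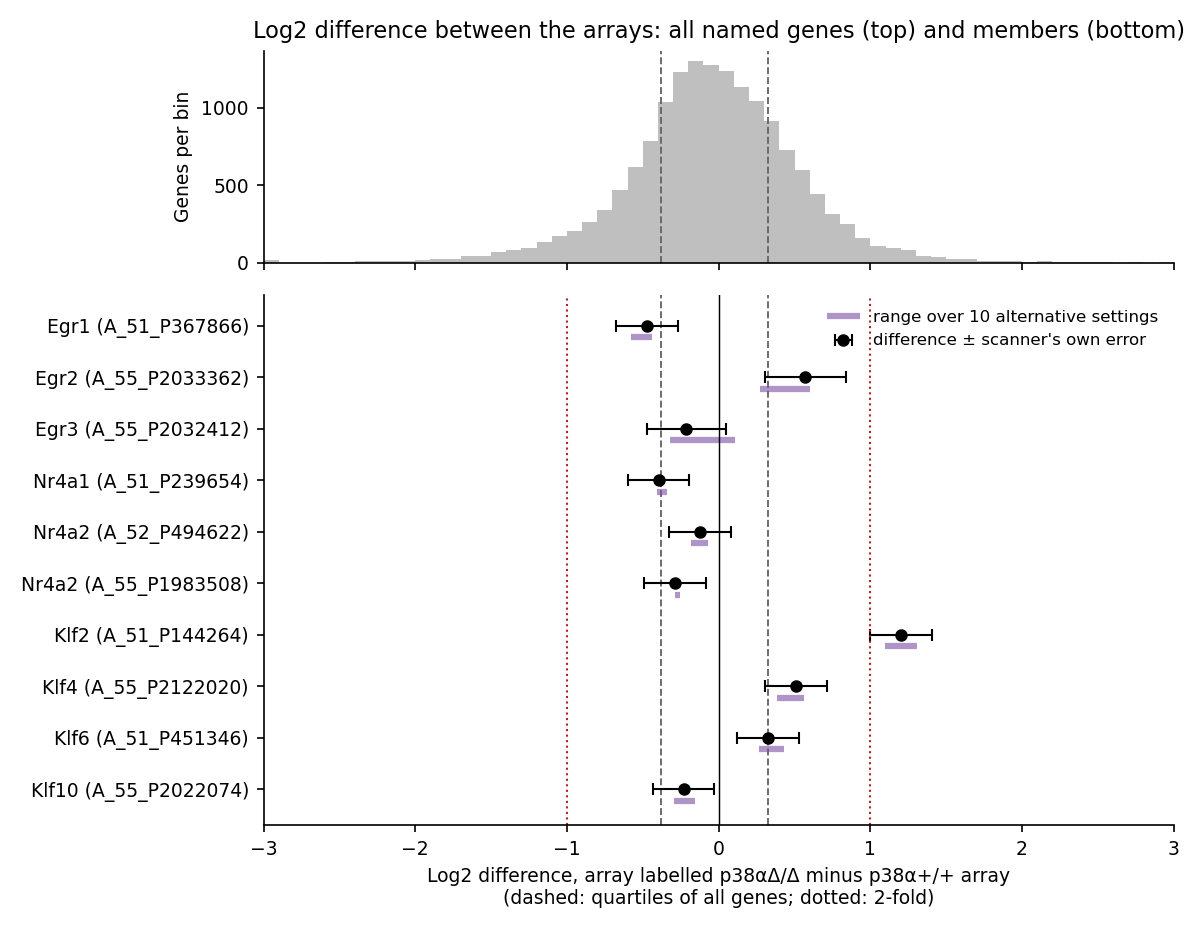
Log2 difference between the arrays for all named genes (top, genes per bin of 0.1, with larger differences gathered in the outermost bins) and for each measured member probe (bottom, points with the scanner's own error as bars and the range over 10 alternative settings as purple bands). Dashed lines are the quartiles of all genes (−0.38 and 0.33) and dotted lines mark 2-fold. Klf2 alone lies past 2-fold, and the band of Egr3 crosses 0.

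Other genes of the Egr and Klf families were mostly higher on the array labelled p38αΔ/Δ. Of 14 on the array, 12 were measured, 9 of them higher and 3 lower (46.8% and 53.2% of all genes detected on both arrays), with a median of 0.33. Klf5, a factor of proliferating epithelium and of myeloid cells, had the largest difference, with log2 levels of −3.53 and −1.99, a 2.90-fold higher level. Klf15, a metabolic regulator, was undetected on the p38α+/+ array and at least 2.26-fold higher on the other. Klf16 and Klf1, the erythroid factor, were higher by 0.51 and 0.50. The lower ones were Klf12 (−0.93), Egr4 (−0.33) and Klf13 (−0.21 at the brightest of its 3 probes, −1.12 at the lowest). Klf14 and Klf17 were undetected on both.

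The partners of these factors were split. NAB1 and NAB2 are corepressors that bind Egr proteins, and the RXR receptors pair with Nr4a receptors. Nab1 was lower by 1.47-fold (log2 levels 2.50 and 1.95). Nab2, itself a known Egr target, was 2.08-fold lower at its brighter probe (0.40 and −0.66) but higher by 0.42 at the other. Rxrg was 2.68-fold higher (−1.29 and 0.13), and both of its probes were higher. Rxrb differed by 0.24 and Rxra by −0.10, or 0.64 at its other probe. The median of the 5 partners was −0.10, but 0.06 with normexp and 0.24 with all probes averaged.

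Factors and kinases that act upstream of these genes mostly differed little. All 27 were detected on both arrays, 12 higher and 15 lower, with a median of −0.08. Of them 2 were at least 2-fold lower, 7.41% beside 5.02% of all genes detected on both arrays. Rps6ka4, which encodes MSK2, was 2.18-fold lower (log2 levels −2.01 and −3.14), whereas Rps6ka5, which encodes MSK1, had levels of 0.75 and 1.04. Crem, a CREB relative, was 2.15-fold lower at its brightest probe (−1.84 and −2.94), with a difference of 0.02 at another. On the array labelled p38αΔ/Δ, Rps6ka4 was dimmer than Egr3 (−3.02) and Crem was nearly as dim, so both folds rest on weak signals. Mapk3 (ERK1) differed by −0.85 at its brighter probe and by 0.16 at the other. The largest positive differences were those of Mapk7 (ERK5; 0.36), which activates MEF2, Nfatc1 (0.30, but −0.35 at its other probe) and Mapkapk2, the p38 substrate kinase MK2 (0.30).

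The other immediate early genes differed in both directions. Of 40, 39 were measured, 15 higher and 24 lower, where 53.2% of all genes detected on both arrays were lower, and their median was −0.12. None was 2-fold higher and 3 were lower by 2-fold or more, 7.69% beside 6.71% of all genes. These were Ier3, a survival factor, with log2 levels of 1.48 and −0.34 (3.52-fold lower), Trib1, a regulator of C/EBPα, with −0.15 and −1.84 (3.22-fold lower at its brighter probe, −0.65 at another), and Fosl1, an AP-1 subunit detected on the p38α+/+ array alone, at least 3.91-fold lower. Jun, the AP-1 subunit, was lower by 1.82-fold (3.43 and 2.56). Fosb was higher (6.19 and 6.73), as were the clock gene Per1 (1.82 and 2.48 at the brighter probe, a difference of 0.04 at the other) and the dim Arc (−4.25 and −3.42). 

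Known targets of the Egr and Klf factors were balanced, with 7 higher and 7 lower among 14 measured and a median of 0.02. S1pr1, a Klf2 target in lymphocytes and the receptor for exit into the circulation, was 1.79-fold lower (log2 levels −0.32 and −1.16), while Klf2 was higher. Cdkn1a, which encodes the cell cycle inhibitor p21 and is a target of Egr1, p53 and Klf factors, was 5.35-fold higher at its brightest probe (−3.68 and −1.26), but its 3 probes gave differences from 0.09 to 2.42. Trp53, which Egr1 can activate, was lower by 0.52, and the Egr1 target Thbs1 was higher by 0.92.

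Genes associated with HSC quiescence were lower more often than higher, 13 against 3 of 16, with a median of −0.21, where 53.2% of all genes detected on both arrays were lower. Mecom, an HSC transcription factor, was 2.71-fold lower at its brightest probe (log2 levels 0.46 and −0.98), but its 3 probes ran from −1.44 to 0.61. Gfi1 was lower by 0.88 and Txnip by 0.87. Cdkn1a and Bmi1 (0.03, below the scanner error) were among the higher ones. The 13 cell cycle genes had a median of −0.01, with 6 higher, 7 lower and 0 past 2-fold. Ccnb1 (−0.67), Ccnd3 (−0.64) and Ccnd1 (−0.53) had the largest negative differences, and Cdk1 (0.55, with its 3 probes from −0.29 up), Ccna2 (0.34) and Mcm2 (0.32) the largest positive ones.

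**Figure D4:**
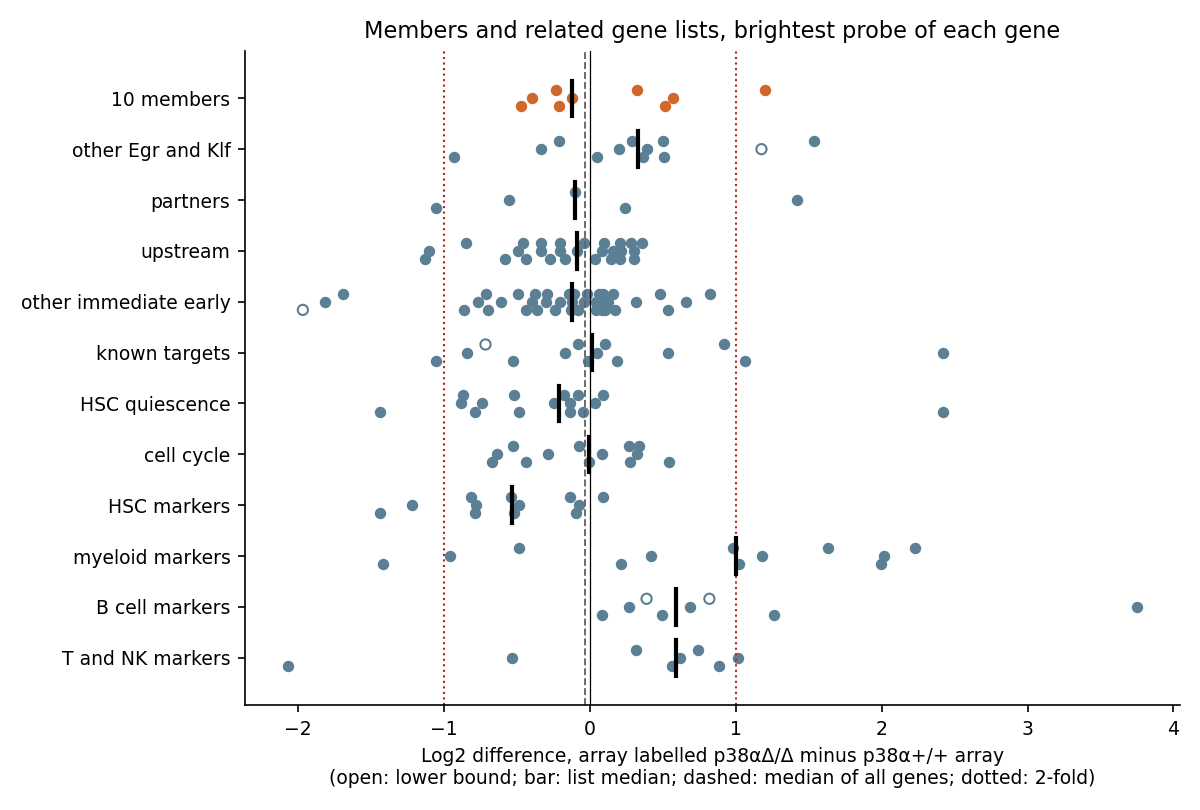
Log2 difference of each gene at its brightest probe for the members (orange) and for related gene lists and cell type markers, with the list median as a black bar, lower bounds as open circles, the median of all genes dashed and 2-fold dotted. The median of the members is −0.12 and turns to 0.11 with normexp background correction, and that of the myeloid markers is 1.00.

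Markers of cell types moved between the arrays beside these differences, and their part in them was not tested. Per the methods, the gate excluded cells with B, T, erythroid or myeloid lineage proteins. Of all genes detected on both arrays, 46.8% were higher and 53.2% lower. HSC markers were lower in 11 of 12 cases, with a median of −0.53 and a summed linear level (relative to the 75th percentile) of 160.2 and then 128.8. Myeloid markers were higher in 9 of 12 cases, with a median of 1.00 (0.70 with normexp), S100a9 (4.04-fold) and Ltf (4.69-fold) among them, while Elane, Prtn3 and Lyz2 were lower. Their summed levels of 218.8 and 299.0 were mostly those of Itgam, without which they were 37.2 and 56.5. Itgam was 1.34-fold higher at its brightest probe, but its 3 probes ran from −0.42 to 0.88. B cell markers were higher in 8 of 8 measured cases, with a median of 0.59. Their summed level went from 3.88 to 18.9, largely through Jchain (13.5-fold higher, log2 levels 0.18 and 3.93), without which it went from 2.75 to 3.68. Ms4a1 and Ebf1 were undetected on the p38α+/+ array, so their place in this count rests on lower bounds. T and NK cell markers were higher in 6 of 8 measured cases, with a median of 0.59 and summed levels of 18.6 and 24.8. Cd2 (4.20-fold) and Klrb1c (1.44-fold) were lower, and Cd3d and Cd3g were undetected on both arrays. Erythroid markers were higher in 5 of 7 measured cases, while the globins Hbb-bt (2.14-fold) and Hba-a1 (1.49-fold) were lower. Their summed levels of 14.3 and 18.8 were largely those of Car1, without which they were 6.37 and 7.54. Megakaryocyte markers were higher in 3 of 6 measured cases (summed levels 48.6 and 42.4). Endothelial and stromal markers were higher in 2 of 5 (5.87 and 5.57), with Cdh5 and Col1a1 undetected on both arrays. The cell type markers named here were chosen after their values were seen.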

How the data were processed

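RNA of sorted LT-HSCs was measured on 1 array per genotype. The authors deposited Agilent scanner files with Cy3 intensity per spot, corrected for background and spatial trend by Agilent Feature Extraction 11.5.1.1 (per the submitters' processing notes), and a normalized log2 table of 35795 probes, whose values equal log2 intensity minus 7.16 (p38α+/+) and 6.84 (p38αΔ/Δ). The scanner software marked all of them well above background.

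From the deposited intensities, control spots and spots marked non-uniform or outlying were left out, log2 values of a probe's spots were averaged, and each array was set to its 75th percentile. A probe counted as detected where at least as many of its spots were marked well above background as were not. An undetected side was set no lower than the weakest detected signal of its array, which gives a bound. The brightest probe stood for a gene. Probe coordinates are those of the array design (mm9); gene names were updated through a RefSeq table (GRCm38.p6), used with mm9 for names only.

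The members and lists were chosen with earlier results of these data known. All members were named, with Mapk14 and, per list, the 3 largest falls and rises measured on both arrays and bounds past 2-fold, except for some list genes that are not reported here. The Egr and MEF2 motifs, the Sp and nuclear receptor lists and the comparison with spots within 10 rows and columns were chosen after seeing the data, as was running the alternatives on the marker lists. The alternatives tried were normexp (offset 50), loess (span 0.3), quantile normalization, the median or 75th percentile of detected probes as centre, the authors' values, other filters, no floor, outlier spots kept and the mean of all probes. On simulated data, 200 of 200 changed probes were recovered under the scaling used. All planted changes were larger than the Klf2 difference of 1.20, over noise far smaller than them. The simulation thus checks the scaling code and cannot tell how well differences of the members' size are recovered. Tools were limma 3.58.1 in R 4.3.3, and statsmodels 0.14.6, pandas 2.3.3 and numpy 2.4.6 in Python 3.11.15.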

Additional observations from a re-analysis of the deposited data

How the results depend on the processing

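Klf2 stayed past 2-fold under all 10 alternatives to which its probe was put, with differences from 1.097 to 1.307. Not all of these could move it. The other filters and the missing floor cannot alter a probe detected on both arrays and gave 1.2013 again. Keeping outlier spots (1.2028) and the authors' values (1.2045) left the scaling nearly unchanged. The same holds for the other measured member probes. Each of them kept its sign under the 10 alternatives except Egr3, which ran from −0.32 (loess) to 0.11 (normexp). Normexp also lowered Egr2 to 0.27 and moved the median of the partners to 0.058. It moved the median of the members to 0.11, which is the value of Egr3. Normexp adds 50 to every spot and starts from the mean spot signal and background, not from the processed intensity. It left 49 genes at least 2-fold higher and 125 lower, against 706 and 1154, and the part of these steps was not tested. Averaging all probes of each gene gave a median of 0.24 for the partners and of −0.27 for the upstream genes. Subtracting neighbouring spots gave 1.51 for Klf2 and 0.05 for the brighter Nr4a2 probe. Among the other lists, normexp gave medians of 0.70 for myeloid, 0.29 for B cell and 0.30 for T and NK cell markers and −0.06 for nuclear receptors. The B cell median was 0.98 without a floor, the T and NK median 0.44 without a filter, the megakaryocyte median −0.09 with all probes averaged, and the Sp family median 0.06 with either other filter. Their further medians moved by less than the spot error. Dim signals limit Egr2, Egr3 and Nr4a3. They also limit list genes with large folds that were dimmer on 1 array than Egr2 (−3.37). Among these were Cdkn1a (−3.68) and Klf5 (−3.53) on the p38α+/+ array and Nr6a1 (−4.43) on the other. Rps6ka4 (−3.14) and Crem (−2.94) were nearly as dim as Egr2 on the array labelled p38αΔ/Δ. No paired analysis was possible because each genotype has 1 array, and no replicate could be left out.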

Other observations

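Related families chosen after the data were seen gave the following values. Of 9 genes of the Sp family, zinc finger factors that bind the same GC-rich boxes as Klf factors, 8 were measured, 5 higher and 3 lower on the array labelled p38αΔ/Δ, with a median of 0.20 (0.06 over those detected on both arrays) and 0 past 2-fold. Sp7 (0.57), Sp6 (0.54) and Sp4 (0.35) had the largest positive differences, and Sp8 (−0.31), Sp2 (−0.23) and Sp3 (−0.14) the negative ones.

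Of 19 other nuclear receptors, all were measured, 5 higher and 14 lower, with a median of −0.25 (−0.06 with normexp), where 53.2% of all genes detected on both arrays were lower. Differences past 2-fold were negative for 3 of them (15.8%, beside 6.71% of all genes) and positive for 1 (5.26%, beside 4.11%). Rara, a retinoic acid receptor, was detected on the p38α+/+ array alone and was at least 8.95-fold lower on the other. Nr6a1 was 2.24-fold lower, and Nr1h3, the oxysterol receptor LXRα, was 2.15-fold lower with both of its probes lower (−1.39 and −1.10). Nr1h2, which encodes LXRβ, was 2.17-fold higher, with log2 levels of 1.52 and 2.64, and Nr1d1, a clock receptor, was higher by 0.90.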
